A study of Homo sapiens with 60 samples.

Results

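Integrins and laminins were followed across the cell lines and treatments of an RNA-seq study of osimertinib, an inhibitor of mutant EGFR. The genes were taken by symbol, as all 18 integrin alpha chains, 8 integrin beta chains and 12 laminin chains, which gave 38 of the 19712 genes in the deposited tables. The study used 4 EGFR-mutant lines of non-small cell lung cancer (NSCLC): PC9, HCC827, NCI-H1975 (H1975 below) and HCC2935. Each line was sequenced in 5 arms with 3 biological replicates, so that 60 libraries fell into 20 groups. Parental cells had spent 21 days in drug-free medium and then received DMSO, the vehicle, for 24 h (DMSO arm) or 500 nM osimertinib for 24 h (acute arm). Other cells were held in 500 nM osimertinib for 21 days, and the survivors are the drug-tolerant persisters (DTPs). DTPs were harvested at once, after 24 h without drug (short washout), or after a longer time without drug when growth had resumed (long washout), which was 7 days in PC9, 4 days in HCC827, 3 days in H1975 and 10 days in HCC2935. Each line stands for 1 tumor model in culture, and the long washout differed in length between the lines.

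Integrins are receptors of an alpha and a beta chain that span the plasma membrane and hold cells to the extracellular matrix. Laminins are trimers of an alpha, a beta and a gamma chain, and form the sheet of the basement membrane on which epithelial cells sit. In lung epithelium LAMA3 and LAMB3 are chains of laminin-332, which is gripped by the integrin of ITGA6 and ITGB4 in hemidesmosomes. ITGAV pairs with ITGB3, ITGB5, ITGB6 or ITGB8 and binds matrix proteins with an RGD motif, and the pairs with ITGB6 and ITGB8 release active TGF-beta from its latent form. ITGA5 pairs with ITGB1 as the main fibronectin receptor, while ITGA1, ITGA2, ITGA10 and ITGA11 pair with ITGB1 as collagen receptors. ITGB2 and ITGB7 with their alpha chains are best known from leukocytes.

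Libraries held 34679067 to 47111694 estimated counts in PC9, 17715463 to 25065864 in HCC827, 38712807 to 49134084 in H1975 and 18642630 to 25580786 in HCC2935, so that depth and line went together. The spread between replicates was above counting error in 60 of 60 pairs of replicates. Levels are given as TPM, the share of a transcript in its library corrected for its length, and fold changes come from the estimated counts by the edgeR quasi-likelihood test. A change was called at an adjusted p under 0.05, and a value written with ± beside a fold change is a log2 fold change with its SE. Epithelial markers (EPCAM, CDH1, KRT7, KRT8 and KRT18) summed to 1810 to 12600 TPM per library, and the leukocyte markers PTPRC, CD3E and LYZ to at most 3.48 TPM. DUSP6, an early target of ERK signaling, was at 26.7 to 36.8 TPM under DMSO and 0.212 to 0.933 TPM under acute osimertinib in PC9, and the groups did not overlap in any line. In the H1975 libraries labelled as long washout DUSP6 stayed at 0.319 to 1.88 TPM, below its 5.91 to 8.73 TPM under DMSO and overlapping the 0.581 to 1.48 TPM of the DTPs. In HCC827 the DTPs held 6.98 to 19.1 TPM, which overlapped DMSO at 12.5 to 15.3 TPM. The 3 PC9 long washout libraries stood apart from each other. On the line from the mean DMSO profile (0%) to the mean DTP profile (100%), over 12586 genes, replicates 1, 2 and 3 lay at 53.2%, 36.0% and 83.9%, so that replicate 3 lay among the short washout libraries (77.1% to 84.8%). Counts on that arm of PC9 are therefore given with and without replicate 3. By the same measure the long washout libraries lay at 103%, 98.9% and 101% in H1975 and at 93.9%, 98.4% and 88.4% in HCC827. Those of HCC2935 lay at 91.1%, 68.9% and 69.3%. The acute, DTP and long washout comparisons use the same 3 DMSO libraries of a line and are not independent of each other, and the short washout was compared with the DTPs.

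Under DMSO the genes differed widely in level and between lines. ITGB1, the common partner of many alpha chains, was at its highest level in HCC827, at 802, 848 and 827 TPM, and held 351, 344 and 372 TPM in PC9, 309.9, 457 and 346 TPM in H1975 and 540.0, 544 and 479 TPM in HCC2935. ITGA3, which pairs with ITGB1 as a laminin receptor, was lowest in H1975, at 243, 176 and 185 TPM, and highest in HCC2935, at 467, 510.0 and 402 TPM. LAMA3 and LAMB3 were most abundant in HCC2935, at 101, 104 and 119 TPM and 516, 577 and 582 TPM, and LAMB3 was lowest in PC9 at 95.2, 91.9 and 116 TPM. ITGA5 had another order, with 164, 132 and 149 TPM in H1975, 52.8 to 57.5 TPM in HCC827, 27.9 to 30.7 TPM in HCC2935 and 13.3 to 16.1 TPM in PC9, and none of these ranges overlapped. LAMA4, an alpha chain of vascular basement membranes, was at 59.9, 62.2 and 55.6 TPM in PC9 and at no more than 4.42 TPM in DMSO libraries of the other lines. Of the 33 genes that passed the filter on low counts among the 12 DMSO libraries, 32 differed between the lines, the exception being ITGAE (adjusted p = 0.0778). That share has to be read against 91.2% of all genes tested. ITGA8 was tested in no comparison, with at most 0.0314 TPM in any library.

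After 24 h of osimertinib the integrin and laminin genes moved in both directions in every line. In PC9, 13 of 31 tested genes rose and 10 fell, against 34.4% and 34.1% of all genes. In HCC827, 7 of 31 rose and 6 fell (20.2% and 22.1% of all genes). In H1975, 8 of 34 rose and 4 fell (21.2% and 23.7%), and in HCC2935, 3 of 32 rose and 12 fell (22% and 25.1%). The summed epithelial markers went from 9570 to 10300 TPM under DMSO to 5090 to 6120 TPM with acute drug in HCC2935. They went up in PC9 (from 7350 to 7830 TPM to 11500 to 12600 TPM) and H1975 (from 3060 to 3830 TPM to 4520 to 6020 TPM), and overlapped with DMSO in HCC827. Their part in these counts was not tested. LAMB2 was higher and ITGA6 and ITGA2 were lower in all 4 lines, and these calls held with any 1 library left out. How many of all genes were called alike in all 4 lines was not counted. The acute effect differed between the lines for 18 of 36 genes (interaction of line and treatment), where 40.5% of all genes differed.

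In the DTPs 17 of 32 tested genes were higher and 9 lower in PC9, where 35.4% and 35.9% of all genes were. The counts were 8 and 8 of 31 in HCC827 (19.4% and 17.2% of all genes), 6 and 13 of 33 in H1975 (22.4% and 23.4%), and 14 and 7 of 34 in HCC2935 (25.3% and 27.2%). ITGB3, ITGB8 and LAMB2 were called higher in all 4 lines and no gene was called lower in all 4. In HCC2935 ITGB3 passed the filter on low counts only through the DTP libraries. The call of ITGB3 in PC9 was lost with DESeq2 (adjusted p = 0.0527) and in the edgeR fit with no filter on low counts (adjusted p = 0.0537). Among the genes described below, 11 were called higher in at least 1 line and lower in at least 1 other, LAMA3, LAMB3 and ITGB6 among them. The share of all genes called alike in all 4 lines, or in opposite directions, was not counted. Neither result can be read as particular to these genes. The DTP effect differed between the lines for 27 of 37 genes, beside 61.6% of all genes. The maps of fold change by gene and line set the acute and the DTP changes side by side.

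**Figure D1:**
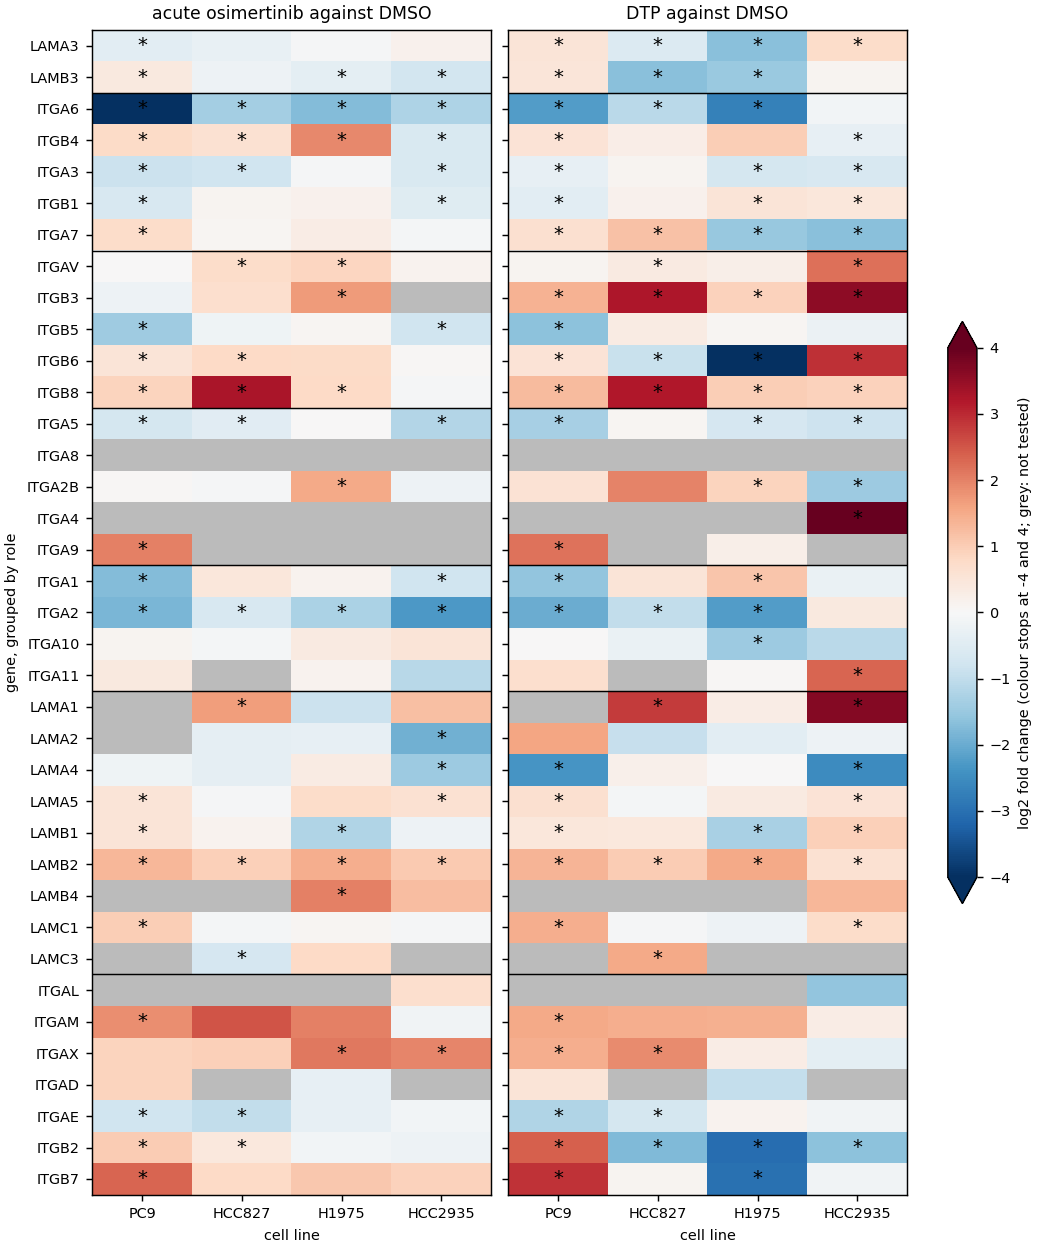
Log2 fold change of 37 of the 38 genes (rows, grouped by role) in the 4 cell lines (columns) under acute osimertinib and in DTPs, each against DMSO; a star marks an adjusted p under 0.05 and grey a gene not tested. The rows of ITGB3, ITGB8 and LAMB2 carry a star and a warm color in all 4 lines of the DTP panel, whereas LAMA3 and ITGB6 are blue in HCC827 and H1975 and red in PC9 and HCC2935.

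LAMA3 and LAMB3 went down together in the DTPs of HCC827 and H1975 and did not in PC9 or HCC2935. In H1975 LAMA3 went from 44.9, 25.4 and 36.2 to 12.8, 10.9 and 9.53 TPM, a 3.18-fold lower level (log2 fold change -1.67, SE 0.21, adjusted p = 0.000446). LAMB3 went from 223, 210.4 and 204 to 78.0, 61.2 and 82.4 TPM in the same line (log2 fold change -1.50, SE 0.14, adjusted p = 0.00014). All 3 DTP libraries lay below all 3 DMSO libraries for both chains. In HCC827 LAMB3 went from 168, 222 and 122 to 85.4, 40.0 and 41.1 TPM (log2 fold change -1.66, SE 0.30, adjusted p = 0.00329). LAMA3 fell less there, with a log2 fold change of -0.55 ± 0.15. The summed epithelial markers fell in the same places, from 6550 to 8570 TPM under DMSO to 2690 to 4600 TPM in DTPs of HCC827 and from 3060 to 3830 TPM to 1870 to 2520 TPM in H1975, and their part in the laminin result was not tested. The summed fibroblast markers (COL1A1, COL3A1, DCN, LUM and PDGFRB) went from 5.22 to 9.37 TPM under DMSO to 26.0 to 62.8 TPM in DTPs of HCC827, and from 20.9 to 49 TPM to 31.9 to 80.3 TPM in H1975, where the ranges overlap. Their part was not tested either. In bulk RNA, fewer cells with a transcript and less of it per cell cannot be told apart.

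In PC9 DTPs LAMA3 went from 32.4, 31.8 and 48.3 to 62.0, 62.7 and 71.6 TPM (log2 fold change 0.53, SE 0.15, adjusted p = 0.00817) and LAMB3 was higher by 0.48 ± 0.09. In HCC2935 LAMA3 went from 101, 104 and 119 to 187, 206 and 212 TPM (log2 fold change 0.73, SE 0.09, adjusted p = 0.000156). LAMB3 there was at 841, 546 and 629.9 TPM and did not pass the test (log2 fold change 0.10, SE 0.15, adjusted p = 0.61). The DTP effect differed between lines for both chains (interaction adjusted p = 3.31e-07 for LAMA3 and 7.01e-06 for LAMB3). After 24 h of drug LAMB3 was lower in HCC2935 (-0.72 ± 0.09, 311 to 372 TPM) and H1975 (-0.38 ± 0.12), higher in PC9 (0.38 ± 0.09) and not called in HCC827 (-0.21 ± 0.17). LAMA3 was called in PC9, where it was lower (-0.41 ± 0.16), and in no other line.

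The lines also differed in level after drug removal. In PC9 LAMB3 was at 211, 185 and 199 TPM after 24 h without drug, from 160.5, 172 and 175 TPM in DTPs (log2 fold change 0.23, SE 0.05, adjusted p = 0.0144), while LAMA3 did not pass (log2 fold change 0.23, SE 0.07, adjusted p = 0.0503). In HCC2935 LAMB3 was at 887, 892 and 853 TPM, above each of the DTP libraries, and was not called (log2 fold change 0.39, SE 0.14, adjusted p = 0.157). After the long washout LAMA3 in H1975 was at 12, 12.2 and 13.2 TPM (log2 fold change -1.50, SE 0.20, adjusted p = 0.000415 against DMSO) and LAMB3 in HCC827 at 57.7, 52.6 and 80.0 TPM (log2 fold change -1.48, SE 0.21, adjusted p = 0.000689), both still below DMSO. The whole profiles of these libraries lay near the DTPs (98.9% to 103% of the way in H1975 and 88.4% to 98.4% in HCC827). Such lasting changes are therefore not particular to these chains. In HCC2935 LAMA3 (0.52 ± 0.10) and LAMB3 (0.48 ± 0.11) were above DMSO. PC9 stood at 97.8, 91.0 and 161 TPM of LAMB3, not called against DMSO (0.04 ± 0.19).

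**Figure D2:**
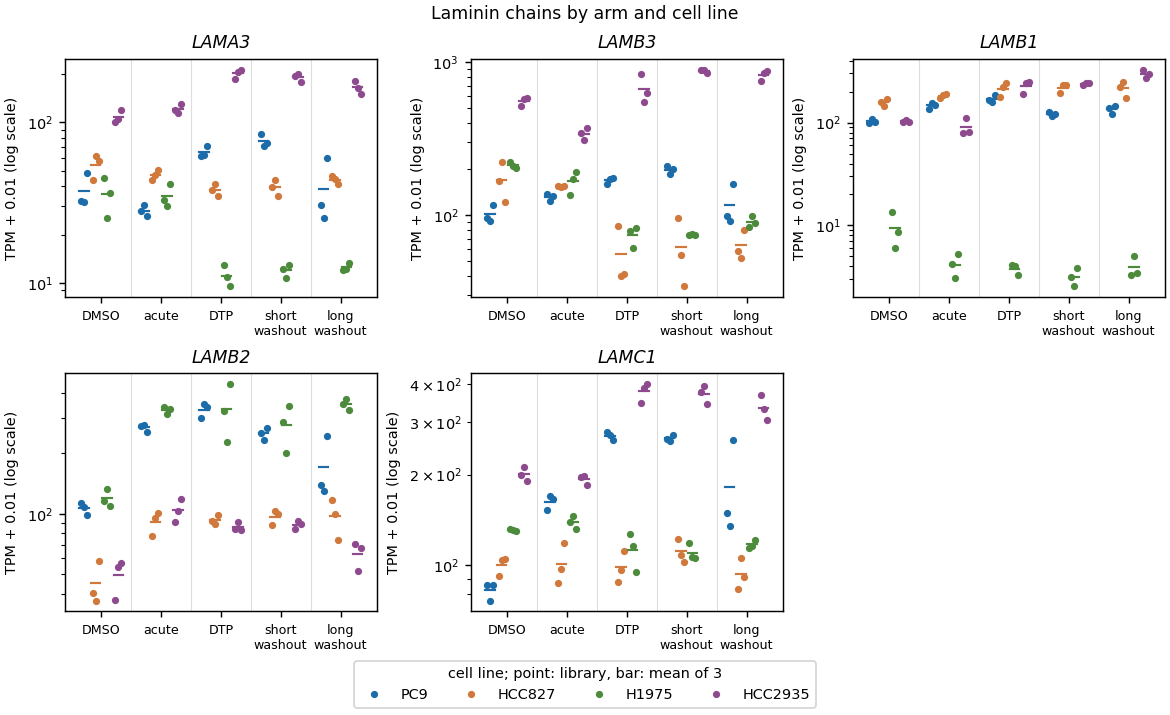
Level of 5 laminin chains (TPM + 0.01, log scale) in each library by arm and cell line, with a bar at the mean of 3 libraries. LAMA3 and LAMB3 are lower in the DTPs of HCC827 and H1975, with LAMB3 of H1975 lower already in the acute arm. LAMB2 lies above DMSO in the acute and DTP arms of all 4 lines.

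The promoters of LAMA3 and LAMB3 are shown because both chains were lower in the DTPs of HCC827 and H1975. They did not move together throughout, and with acute drug in PC9 they were called in opposite directions. LAMA3 (chromosome 18, 23689443 to 23956222, plus strand, GRCh38, GENCODE release 29) and LAMB3 (chromosome 1, 209614870 to 209652466, minus strand) each have a window in the RefSeq table, and the 250 bases before the start of the gene are printed 5′ to 3′ from GRCh38.p14, for LAMA3 chr18:23872770-23873019 on the plus strand and for LAMB3 chr1:209652426-209652675 on the minus strand. The LAMA3 window lies 184 kb inside the annotated gene, before its inner start, and counts summed per gene do not separate the starts. Capitals mark the AP-1 motif TGAGTCA on either strand.
LAMA3: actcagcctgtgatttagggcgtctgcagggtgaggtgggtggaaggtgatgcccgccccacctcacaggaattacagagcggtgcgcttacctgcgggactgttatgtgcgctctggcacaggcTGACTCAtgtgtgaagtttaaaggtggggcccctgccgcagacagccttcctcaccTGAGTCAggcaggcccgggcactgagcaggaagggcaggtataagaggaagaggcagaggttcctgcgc
LAMB3: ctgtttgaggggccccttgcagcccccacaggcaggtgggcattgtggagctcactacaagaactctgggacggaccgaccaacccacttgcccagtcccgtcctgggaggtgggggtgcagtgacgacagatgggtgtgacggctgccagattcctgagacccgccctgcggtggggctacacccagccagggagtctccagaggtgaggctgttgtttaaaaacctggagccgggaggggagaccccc
The motif occurs in the LAMA3 window in both orientations and is absent from these letters of LAMB3. It was present in the 300-base windows of ITGA5 and LAMA3 among the 26 genes that had a window, and in 4.92% of 27305 promoters. The letters GGAATG or their reverse complement, a TEAD motif, occurred in 4 of the 26 (ITGA10, ITGA5, ITGB1 and LAMA2) and in 14% of all promoters.

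ITGA6, the alpha chain that joins ITGB4 in the hemidesmosome receptor, fell in all 4 lines within 24 h of osimertinib. In PC9 it went from 273, 259 and 314 TPM to 11.9, 8.72 and 14.3 TPM, a 24.2-fold lower level (log2 fold change -4.60, SE 0.17, adjusted p = 1.92e-07). The log2 fold change was -1.37 ± 0.13 in HCC827, -1.72 ± 0.11 in H1975 and -1.23 ± 0.10 in HCC2935, and the effect differed between the lines (interaction adjusted p = 3.72e-10). In DTPs ITGA6 was at 64.3, 83.8 and 67.7 TPM in PC9, above its acute level and below DMSO (log2 fold change -2.24, SE 0.11, adjusted p = 1.28e-07). In H1975 DTPs it was at 12.5, 16.2 and 9.70 TPM from 75.4, 84 and 89.8 TPM (log2 fold change -2.69, SE 0.17, adjusted p = 4.05e-05), and in HCC827 at 47.2, 44.9 and 41.9 from 82.2, 108 and 85.2 TPM (log2 fold change -1.07, SE 0.13, adjusted p = 0.000533). HCC2935 DTPs were at 113, 133 and 142 TPM, overlapping DMSO at 117 to 129 TPM (log2 fold change -0.10, SE 0.10, adjusted p = 0.421). After the long washout ITGA6 was above DMSO in HCC2935 at 173, 180.0 and 242 TPM (log2 fold change 0.60, SE 0.15, adjusted p = 0.0102) and below it in H1975 (9.62 to 13.5 TPM, -2.90 ± 0.13), HCC827 (40.1 to 42.9 TPM, -1.18 ± 0.12) and PC9 (83.7, 138 and 82.5 TPM, -1.61 ± 0.24).

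ITGB4, whose long cytoplasmic tail anchors keratin filaments through plectin, did not follow ITGA6. Acute osimertinib raised it in H1975 from 51.0, 18.2 and 34.6 to 129.9, 127 and 139.8 TPM (log2 fold change 1.91, SE 0.33, adjusted p = 0.00308), in PC9 from a range of 92.5 to 104 TPM to one of 132 to 192 TPM (0.78 ± 0.14) and in HCC827 from 51.4, 39.6 and 42.9 to 70.6, 76.4 and 65.6 TPM (0.60 ± 0.12). In HCC2935 it was lower, at 119, 130.5 and 148 TPM from 194, 207 and 203 TPM (-0.61 ± 0.08). In DTPs it was called in PC9 (0.56 ± 0.07) and, lower, in HCC2935 (-0.33 ± 0.11, 151 to 206 TPM, overlapping DMSO). Its log2 fold change of 0.99 in H1975 DTPs was not called. After the long washout it was above DMSO in H1975 (log2 fold change 1.52, adjusted p = 0.0061) and HCC827 (log2 fold change 0.81, adjusted p = 0.0378). The HCC827 call was lost in 5 of the 6 fits with 1 library left out. The gene shares bases with GALK1 on the opposite strand, and since a strand-aware count is not stated, reads from the overlap cannot be told apart.

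ITGA3 and ITGB1, the chains of the broader laminin receptor, changed by less. ITGA3 fell after 24 h in PC9 (-0.86 ± 0.06, from 267, 264 and 266 to 139, 140.2 and 161 TPM), HCC827 (-0.79 ± 0.11, from 334, 277 and 292 to 159.6, 184 and 205 TPM) and HCC2935 (-0.61 ± 0.11, from 467, 510.0 and 402 to 302, 308 and 299 TPM). The libraries of the acute arm lay below those of DMSO in each of these lines. HCC827 DTPs were back at 336, 284 and 370.5 TPM (0.11 ± 0.14, not called). DTPs were lower than DMSO in PC9 (-0.32 ± 0.05), H1975 (132, 99.8 and 135 TPM, -0.70 ± 0.17) and HCC2935 (-0.65 ± 0.13). ITGB1 was lower in DTPs of PC9 (-0.43 ± 0.06, 333, 304 and 315 TPM) and higher in those of H1975 (0.52 ± 0.14, 576, 520.4 and 476 TPM) and HCC2935 (0.46 ± 0.09, 800.3, 801 and 829 TPM). ITGA7, a laminin receptor chain of muscle, stayed under 11 TPM everywhere and split between the lines as well, higher in DTPs of PC9 (0.64 ± 0.22) and HCC827 (1.17 ± 0.30) and lower in H1975 (-1.52 ± 0.27) and HCC2935 (-1.68 ± 0.42). It overlaps BLOC1S1 and METTL7B on the other strand.

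**Figure D3:**
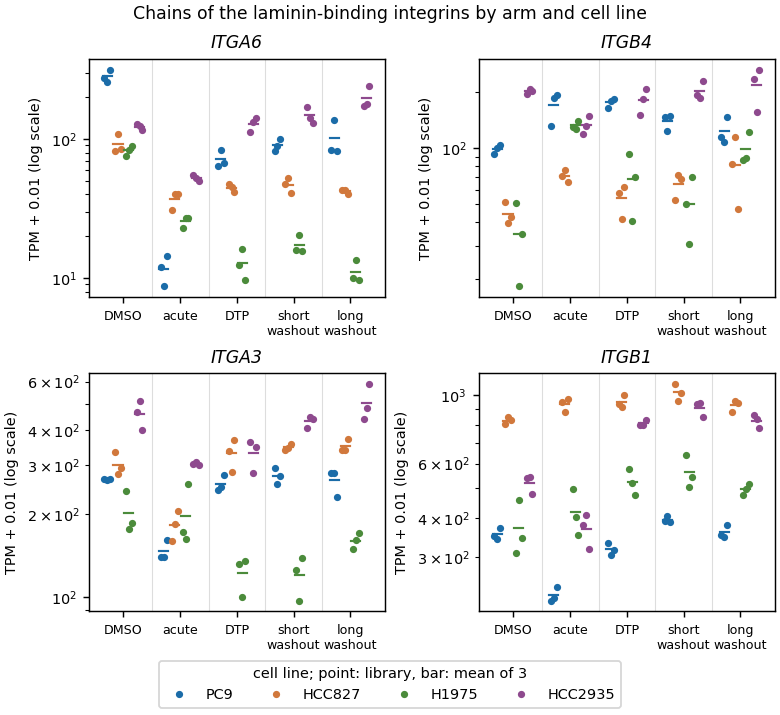
Level of ITGA6, ITGB4, ITGA3 and ITGB1 (TPM + 0.01, log scale) in each library by arm and cell line, with a bar at the mean of 3 libraries. ITGA6 drops in the acute arm of every line, most in PC9 (8.72 to 14.3 TPM), and is back at the DMSO level only in HCC2935 DTPs.

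The partners of ITGAV parted between the lines. ITGB6, an epithelial chain that activates latent TGF-beta, went from 12, 1.95 and 5.38 TPM under DMSO to 0.456, 0.471 and 0.189 TPM in H1975 DTPs (log2 fold change -4.11, SE 0.65, adjusted p = 0.00128) and to 0.0673, 0.193 and 0.207 TPM after the long washout (log2 fold change -5.37, SE 0.75, adjusted p = 0.000556). The DMSO libraries of H1975 were far apart, yet all lay above every DTP library. In HCC2935 it went the other way, from 36.2, 34.9 and 39.3 to 335, 284 and 322 TPM, 7.57-fold higher (log2 fold change 2.92, SE 0.10, adjusted p = 2.99e-07), and stood at 374, 235 and 249 TPM after the long washout. After 24 h of drug HCC2935 had 36.5, 41.4 and 36.5 TPM, overlapping DMSO (log2 fold change 0.05, SE 0.10, adjusted p = 0.721). In PC9 ITGB6 was higher in DTPs (63.1, 54.3 and 72.0 from 33.3, 38.5 and 35.3 TPM, 0.56 ± 0.10) and again at the short washout (102, 99.6 and 85.3 TPM, 0.60 ± 0.11 against DTPs). HCC827 rose after 24 h (36.9, 44.0 and 45.7 from 23.2, 20.2 and 26.1 TPM, 0.79 ± 0.12) and was lower in DTPs (20.5, 10.5 and 7.53 TPM, -0.89 ± 0.30), where replicate 1 overlapped DMSO. The DTP effect differed between the lines (interaction adjusted p = 1.31e-07).

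ITGB8, the other chain of the family that activates TGF-beta, was higher in DTPs of all 4 lines from a low level. HCC827 went from 0.541, 0.367 and 0.702 TPM to 3.90, 6.95 and 5.63 TPM after 24 h (log2 fold change 3.28, SE 0.28, adjusted p = 3.99e-05) and had 6.93, 5.02 and 3.25 TPM in DTPs (log2 fold change 3.20, SE 0.33, adjusted p = 0.000222). PC9 went from 2.36, 3.34 and 3.14 to 8.77, 7.59 and 9.24 TPM in DTPs (1.27 ± 0.14) and H1975 from 0.883, 0.616 and 0.473 to 1.56, 1.07 and 1.21 TPM (0.98 ± 0.27). In HCC2935 the DTPs held 9.47, 6.43 and 6.0 TPM against 2.81, 2.46 and 5.08 TPM (0.92 ± 0.27), with no change after 24 h that passed the test (-0.05 ± 0.24). It was also the only gene of the 38 called higher after the long washout in all 4 lines, at 5.45, 5.04 and 8.09 TPM in PC9, 4.56 to 4.81 in HCC827, 1.10 to 1.49 in H1975 and 5.29 to 6.41 in HCC2935. The share of all genes with such calls was not counted. The size of the DTP effect on ITGB8 differed between the lines (interaction adjusted p = 0.000299).

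The promoters of ITGB6 and ITGB8 are printed because these chains serve alike in TGF-beta activation and moved apart in H1975. ITGB6 (chromosome 2, 160099666 to 160200313, minus strand) and ITGB8 (chromosome 7, 20330702 to 20415754, plus strand) differ in the base composition of their 300-base windows, with 31.7% and 71.7% G and C. The 250 bases before the start are chr2:160200273-160200522 on the minus strand for ITGB6 and chr7:20330650-20330899 on the plus strand for ITGB8 (RefSeq, GRCh38.p14, 5′ to 3′), and no AP-1 motif lies in either.
ITGB6: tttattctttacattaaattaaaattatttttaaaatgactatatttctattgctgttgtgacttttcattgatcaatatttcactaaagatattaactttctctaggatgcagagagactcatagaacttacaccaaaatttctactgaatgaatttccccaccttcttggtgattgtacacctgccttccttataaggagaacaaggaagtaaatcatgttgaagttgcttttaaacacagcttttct
ITGB8: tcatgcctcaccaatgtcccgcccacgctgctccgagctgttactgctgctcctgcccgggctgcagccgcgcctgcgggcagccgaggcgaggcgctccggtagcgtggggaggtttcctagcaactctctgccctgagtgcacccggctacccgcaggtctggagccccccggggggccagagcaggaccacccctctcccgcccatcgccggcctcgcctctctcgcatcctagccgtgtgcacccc

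ITGB3, which binds vitronectin with ITGAV, was higher in DTPs of all 4 lines over very different levels. H1975 had the most under DMSO, 14.2, 10.5 and 8.80 TPM, and 26.0, 17.3 and 19.1 TPM in DTPs (log2 fold change 0.91, SE 0.20, adjusted p = 0.00627). HCC827 went from 1.52, 0.771 and 1.17 to 12.5, 10.3 and 10.2 TPM, 9.37-fold higher (log2 fold change 3.23, SE 0.25, adjusted p = 7.47e-05), and stayed at 9.41, 9.00 and 12.3 TPM after the long washout. PC9 reached 0.363, 0.241 and 0.445 TPM from 0.216, 0.0599 and 0.0486 TPM. In HCC2935, 2 of the 3 DMSO libraries had no counts of ITGB3 and the third had 10, while DTP libraries held 0.932, 0.930 and 0.658 TPM (50, 53 and 31 counts), so that the fitted log2 fold change of 3.57 (adjusted p = 0.0112) depends on the prior count of the fit. ITGB3 passed the filter in this comparison only through the DTP libraries, so the call adds no support beyond the counts. Acute osimertinib raised it in H1975, to 39.1, 39.5 and 31.3 TPM (log2 fold change 1.70, SE 0.19, adjusted p = 0.000474). Its acute changes in PC9 and HCC827 were -0.20 ± 0.61 and 0.67 ± 0.33, neither called, and the difference between lines did not pass the test (interaction adjusted p = 0.0722).

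ITGAV itself rose 4.57-fold in HCC2935 DTPs, from 54.4, 44.7 and 57.5 to 270.2, 267 and 268 TPM (log2 fold change 2.19, SE 0.10, adjusted p = 1.23e-06), and was at 304, 179 and 170.5 TPM after the long washout. In HCC827 it rose with acute drug (95.8, 99.2 and 116 from 57.9, 63.0 and 56.6 TPM, 0.74 ± 0.09) and in H1975 likewise (56.9, 62.3 and 75.0 from 40.6, 30.9 and 33.9 TPM, 0.86 ± 0.14). ITGB5, a broadly expressed vitronectin receptor chain, fell in PC9 to 67.8, 86.0 and 78.5 TPM after 24 h and 80.4, 78.5 and 80.4 TPM in DTPs from 208, 211 and 202 TPM (log2 fold change -1.64, SE 0.06, adjusted p = 2.28e-08). Its DTP changes in the other lines were not called (0.33 ± 0.17 in HCC827, 0.09 ± 0.12 in H1975 and -0.24 ± 0.13 in HCC2935). With acute drug ITGB5 was also lower in HCC2935 (log2 fold change -0.81, adjusted p = 0.00123) and was not called in HCC827 or H1975.

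**Figure D4:**
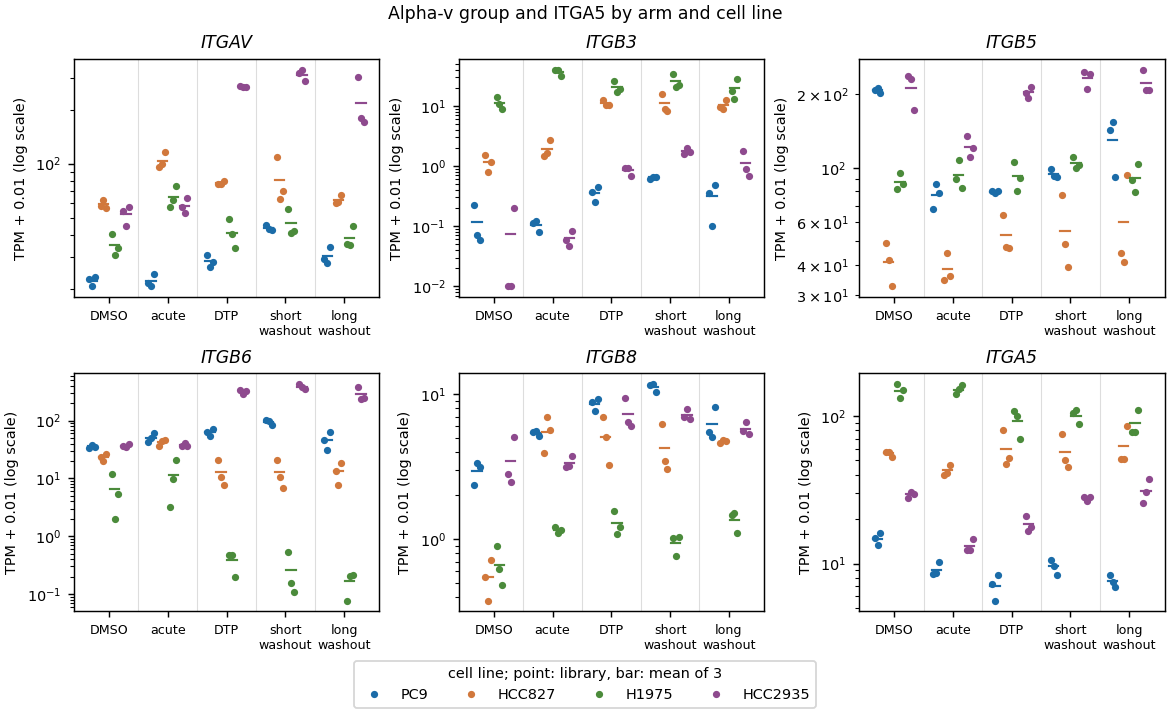
Level of ITGAV, its beta chains and ITGA5 (TPM + 0.01, log scale) in each library by arm and cell line, with a bar at the mean of 3 libraries. ITGB6 parts between H1975 (below 0.5 TPM) and HCC2935 (above 280 TPM) in the DTP arm, whereas ITGB8 lies above DMSO in the DTPs of all 4 lines.

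The mix of beta chains open to ITGAV shifted with these levels. Shares of the summed TPM of ITGB3, ITGB5, ITGB6 and ITGB8 are given as mean ± SD of 3 libraries. In HCC2935 ITGB6 made up 14.8% ± 2.93 under DMSO and 59.7% ± 1.28 in DTPs. In PC9 it went from 14.5% ± 0.777 to 37.9% ± 3.57 after 24 h and 41.5% ± 2.90 in DTPs. In HCC827 its share dropped from 35.4% ± 6.62 to 15.1% ± 4.40 while that of ITGB3 grew from 1.73% ± 0.443 to 13.7% ± 1.49. In H1975 ITGB5 held 82.8% ± 6.82 under DMSO and 80.5% ± 1.34 in DTPs, and ITGB6 was left with 0.329% ± 0.154. These shares describe transcripts, and the amount of each chain at the cell surface was not measured.

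**Figure D5:**
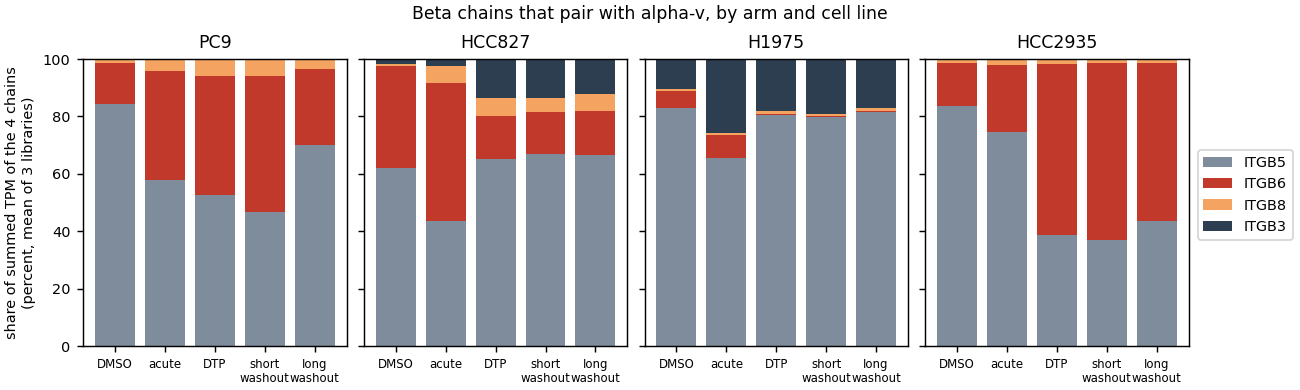
Share of ITGB5, ITGB6, ITGB8 and ITGB3 in their summed TPM (percent, mean of 3 libraries) by arm in the 4 cell lines. ITGB6 grows to 59.7% in HCC2935 DTPs and is nearly gone in those of H1975 (0.329%), where ITGB5 and ITGB3 make up most of the rest.

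The fibronectin receptor chain ITGA5 was lower in the DTPs of 3 lines and not in HCC827. PC9 went from 14.9, 13.3 and 16.1 to 7.30, 5.61 and 8.31 TPM (log2 fold change -1.33, SE 0.14, adjusted p = 1.34e-05), H1975 from 164, 132 and 149 to 108, 99.6 and 69.4 TPM (log2 fold change -0.67, SE 0.16, adjusted p = 0.00913) and HCC2935 from 27.9, 30.7 and 29.8 to 21.0, 16.7 and 17.8 TPM (log2 fold change -0.84, SE 0.11, adjusted p = 0.000251). HCC827 DTPs had 80.5, 47.4 and 52.0 TPM against 57.2, 57.5 and 52.8 TPM (0.07 ± 0.18). The difference between lines passed the test (interaction adjusted p = 0.000402). After 24 h it was lower in PC9, HCC827 and HCC2935 (-0.69 ± 0.10, -0.46 ± 0.09 and -1.18 ± 0.09). In HCC2935 it was the single gene of the 38 called at the short washout, at 28.4, 26.6 and 28.2 TPM (log2 fold change 0.59, SE 0.10, adjusted p = 0.0205), and this call was lost without DTP replicate 2 or short washout replicate 1, 2 or 3 (adjusted p of 0.0595 to 0.0878).

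ITGA4, a fibronectin and VCAM1 receptor chain typical of leukocytes, was higher in HCC2935 DTPs from almost no counts. Its DMSO libraries held 1, 0 and 2 counts and its acute libraries 4, 0 and 0, while the DTPs had 48, 77 and 69 counts (1.35, 2.07 and 2.25 TPM), the short washout 1.73, 1.64 and 2.11 TPM and the long washout 3.22, 2.37 and 3.65 TPM. ITGA4 passed the filter on low counts only through the arms where it was high, and was not tested with acute drug. Its adjusted p in edgeR (0.000107 in DTPs and 4.44e-05 after the long washout) therefore adds no support beyond the counts. In the other lines it passed the filter in no comparison, with at most 0.419 TPM. The leukocyte markers summed to 0.17 to 1.57 TPM in HCC2935. ITGA9 was tested in PC9 at up to 0.251 TPM and was higher there with acute drug (2.03 ± 0.53) and in DTPs (2.16 ± 0.48). It was also tested in H1975 DTPs and in PC9 after the long washout and was called in neither. ITGA2B, the platelet chain, stayed under 7.5 TPM, with a DTP change of 0.89 ± 0.26 in H1975 and -1.44 ± 0.38 in HCC2935.

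Among the collagen receptors ITGA2 was lower after 24 h of drug in all 4 lines and parted afterwards. HCC2935 went from 58.8, 51.0 and 59.6 to 11.4, 9.61 and 13.4 TPM (log2 fold change -2.31, SE 0.11, adjusted p = 8.53e-07) and its DTPs held 132, 45.8 and 71.2 TPM, spread on both sides of DMSO (log2 fold change 0.39, SE 0.31, adjusted p = 0.326). PC9 went from 60.1, 74.2 and 83.6 to 20.9, 19.1 and 21.5 TPM, had 26.8, 17.4 and 22.6 TPM in DTPs (log2 fold change -1.97, SE 0.16, adjusted p = 3.27e-06) and 45.1, 51.3 and 45.0 TPM 24 h after drug removal (log2 fold change 1.09, SE 0.15, adjusted p = 0.00214 against DTPs). H1975 DTPs had 6.27, 6.62 and 6.48 TPM from 37.1, 20.8 and 33.9 TPM (log2 fold change -2.23, SE 0.21, adjusted p = 0.000154), the short washout 6.18 to 7.05 TPM and the long washout 4.15 to 5.66 TPM. HCC827 had 16.1, 12.4 and 11.9 TPM in DTPs (-0.99 ± 0.14). The DTP effect differed between the lines (interaction adjusted p = 2.19e-05). ITGA1, a neighbor of ITGA2 on chromosome 5 that contains the gene PELO on the same strand, was lower in PC9 DTPs (1.73, 1.47 and 1.66 from 4.68, 3.32 and 3.98 TPM, -1.57 ± 0.16) and higher in H1975 DTPs (4.61, 2.56 and 2.07 from 1.45, 0.977 and 1.83 TPM, 1.12 ± 0.34). ITGA10 and ITGA11 stayed under 2.6 TPM. ITGA11 was higher in HCC2935 DTPs (0.715, 1.42 and 0.681 from 0.135, 0.165 and 0.200 TPM, 2.33 ± 0.40) and ITGA10 lower in H1975 DTPs (0.321, 0.326 and 0.427 from 1.23, 0.872 and 0.880 TPM, -1.45 ± 0.31).

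Of the other laminin chains LAMB2 stood out by its direction. This beta chain of mature basement membranes (chromosome 3, 49121114 to 49133118, minus strand) overlaps no other annotated gene. It went from 116, 133 and 109 to 338, 314 and 330.2 TPM after 24 h in H1975 (log2 fold change 1.44, SE 0.09, adjusted p = 5.68e-05) and from 114, 108 and 98.8 to 273, 277 and 256 TPM in PC9 (log2 fold change 1.34, SE 0.08, adjusted p = 1.15e-06). HCC827 went from 40.3, 37.0 and 57.9 to 77.6, 94.7 and 101 TPM (0.94 ± 0.17) and HCC2935 from 37.4, 54.3 and 57.2 to 91.2, 103 and 118 TPM (1.06 ± 0.15). DTPs had 322, 226 and 440.4 TPM in H1975, 298, 350.4 and 338 in PC9, 91.5, 89.0 and 98.4 in HCC827 and 83.8, 90.8 and 83.3 in HCC2935, and no DTP library overlapped DMSO. The acute effect did not pass the test of a difference between lines (interaction adjusted p = 0.117) and the DTP effect did (0.04). In H1975 LAMB2 and LAMB3 changed places, since LAMB3 made up 62.3% ± 1.80 of the summed TPM of LAMB1, LAMB2 and LAMB3 under DMSO and 18.7% ± 2.73 in DTPs, and LAMB2 34.9% ± 2.72 and 80.3% ± 3.10 (mean ± SD, n = 3).

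LAMB1, the beta chain of many embryonic and epithelial laminins, was lower in H1975 with acute drug (4.17, 3.05 and 5.22 from 13.4, 6.05 and 8.71 TPM, -1.20 ± 0.31) and in DTPs (4.08, 4.01 and 3.31 TPM, -1.29 ± 0.27), and higher in DTPs of PC9 (0.46 ± 0.06) and HCC2935 (0.96 ± 0.11). LAMC1, its usual gamma chain, rose in PC9 from 85.6, 76.3 and 85.8 to 152, 170.0 and 166 TPM after 24 h and 277, 270.3 and 260.4 TPM in DTPs (log2 fold change 1.44, SE 0.07, adjusted p = 8.43e-08), and in HCC2935 DTPs to 347, 389 and 399.9 from 199.9, 213 and 191 TPM (0.74 ± 0.09). In HCC827 and H1975 its DTP change was -0.04 ± 0.14 and -0.20 ± 0.11, neither called. LAMA4 was lower in PC9 DTPs (16.0, 12.1 and 13.9 from 59.9, 62.2 and 55.6 TPM, log2 fold change -2.35, SE 0.11, adjusted p = 8.26e-08) while its acute change did not pass (-0.17 ± 0.09), and in HCC2935 it was lower at both times (-1.46 ± 0.24 and -2.51 ± 0.32). LAMA5, the alpha chain of most adult epithelial basement membranes, was the highest laminin alpha chain in every line, and was higher in DTPs of PC9 (404, 485 and 416 from 228, 254 and 215 TPM, 0.64 ± 0.08) and HCC2935 (444, 436 and 470.4 from 278, 260.3 and 272 TPM, 0.56 ± 0.08). LAMA1 was higher in DTPs of HCC2935 (2.07, 1.54 and 2.48 from 0.0939, 0.192 and 0.129 TPM, log2 fold change 3.67, SE 0.34, adjusted p = 3.77e-05) and HCC827 (2.80 ± 0.66, up to 1.05 TPM). LAMC3 was above 1 TPM in HCC827 libraries alone, where it was lower with acute drug (-0.66 ± 0.18) and higher in DTPs (6.36, 11.5 and 13.8 from 3.59, 4.21 and 3.07 TPM, 1.53 ± 0.29). LAMA2 stayed under 3.6 TPM and LAMB4 under 1.3 TPM in every library, and neither was called in DTPs. LAMB4 passed the filter on low counts in DTPs of only 1 line and was not tested in those of H1975. With acute drug LAMA2 was lower in HCC2935 (0.0824 to 0.350 from 0.869 to 0.893 TPM, -1.92 ± 0.49), LAMB4 higher in H1975 (0.302 to 0.358 from 0.0477 to 0.155 TPM, 2.00 ± 0.52) and LAMA1 higher in HCC827 (0.214 to 0.416 from 0.0275 to 0.130 TPM, 1.66 ± 0.59). In H1975 LAMB4 passed the filter on low counts only through the acute libraries, so its call adds no support beyond the levels. LAMB1 overlaps DLD and LAMA5 overlaps ADRM1, each on the opposite strand, so that reads from those stretches cannot be told apart.

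The leukocyte integrins included genes with some of the largest DTP changes at low levels. ITGB2, the common beta chain of leukocyte adhesion, was higher in PC9 DTPs (18.6, 24.3 and 17.6 from 2.53, 4.11 and 2.95 TPM, log2 fold change 2.38, SE 0.20, adjusted p = 2.84e-06) and lower in those of H1975 (0.842, 0.778 and 1.42 from 10.7, 6.62 and 7.99 TPM, log2 fold change -3.04, SE 0.32, adjusted p = 0.000215), HCC827 (-1.77 ± 0.20) and HCC2935 (-1.65 ± 0.17). ITGB7 had the same split between PC9 (3.83, 4.62 and 3.76 from 0.562, 0.381 and 0.414 TPM, log2 fold change 2.90, SE 0.29, adjusted p = 1.25e-05) and H1975 (0.245, 0.315 and 0.167 from 3.34, 0.824 and 1.57 TPM, log2 fold change -2.99, SE 0.58, adjusted p = 0.00332). PC9 had reached 2.04 to 2.68 TPM of ITGB7 after 24 h of drug (2.33 ± 0.32), and after the long washout H1975 was still low in ITGB7 (-2.99 ± 0.78) and ITGB2 (-3.31 ± 0.24). ITGAM, the partner of ITGB2 in macrophages, was higher in PC9 with acute drug (6.78 to 10.4 from 2.11 to 2.66 TPM, 1.85 ± 0.18) and in DTPs (1.52 ± 0.15). ITGAE, which marks resident T cells, was at 17.8 to 58.8 TPM in every line and fell in DTPs of PC9 (-1.20 ± 0.12) and HCC827 (-0.71 ± 0.18). ITGAX was higher with acute drug in H1975 (2.42, 4.65 and 6.14 from 1.23, 0.736 and 0.986 TPM, log2 fold change 2.12, SE 0.37, adjusted p = 0.00286) and HCC2935 (1.95 ± 0.45). ITGAL and ITGAD did not exceed 1.5 TPM and were called nowhere. The leukocyte markers PTPRC, CD3E and LYZ summed to 0.0302 to 1.12 TPM in PC9 and 0.825 to 3.48 TPM in H1975, and CD3E stayed below 0.1 TPM in every library of both. ITGB7 shares bases with ZNF740 and ITGAE with HASPIN, each on the opposite strand, so that reads from those stretches cannot be told apart.

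After 24 h without drug 15 of the genes had changed in PC9 and at most 1 in any other line. In PC9, 11 of 34 tested genes rose and 4 fell against the DTPs (12.1% and 10.1% of all genes). Of the called genes ITGA2 changed most (1.09 ± 0.15), ITGA1 rose by 0.75 ± 0.13, and ITGAV rose to 45.4, 43.3 and 42.7 TPM (0.61 ± 0.07). LAMB1, LAMB2, LAMA5 and ITGB4 fell, by at most 0.49 on the log2 scale. In a fit of the 15 libraries of the line 6 of the genes were called in PC9. Calls over all genes went from 3221 of 14526 to 880 of 14866 in that fit. In HCC827, 0 of 33 genes were called, as were 0% of all genes in both directions by edgeR, and 0 of the 33 had an unadjusted p under 0.05 (197 of 14009 genes in all did). DESeq2 and limma also called 0 of all genes there. With the replicate block 0 genes were called higher and 2 lower over all genes, and 934 had an unadjusted p under 0.05. In H1975, 0 of 33 were called by edgeR (0% of all genes in both directions), 2 had an unadjusted p under 0.05 (ITGA6 and ITGB8, beside 1950 of 14665 genes in all), DESeq2 called 270 genes higher and 129 lower over all genes, limma called 0, and a fit with the replicate number as a block called 4 of the 33, beside 983 genes higher and 714 lower over all genes. In HCC2935, 1 of 35 rose and 0 fell (2.47% and 1.04% of all genes), while 10 had an unadjusted p under 0.05, all toward a higher level (2878 of 14305 genes in all, or 20.1%, had one in either direction), and DESeq2 called 5, beside 711 genes higher and 452 lower over all genes.

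After the long washout 5 of 32 tested genes were above DMSO and 6 below in PC9 (15.9% and 14.7% of all genes). Without replicate 3, the library that lay among those of the short washout, 5 were above and 7 below. The count fell to 3 without DMSO replicate 3 and to 6 without DMSO replicate 1, and was 7 without long washout replicate 1. Calls over all genes were not counted in these left-out fits. Of the genes called in PC9 with all libraries, those that changed most were -1.61 ± 0.24 for ITGA6, -1.53 ± 0.33 for LAMA4 and 1.52 ± 0.41 for ITGB2, whose level was 7.14, 5.63 and 18.5 TPM. In HCC827, 9 of 31 were above and 8 below (19.7% and 19.9% of all genes), LAMA1 among the former (2.66 ± 0.69), and in H1975, 8 of 32 were above and 12 below (26.8% and 28.2%). The profiles of HCC827 and H1975 as a whole still lay near the DTPs in this arm. In HCC2935, 18 of 35 were above DMSO and 4 below (21% and 18.9%). The largest changes were those of ITGA4 and ITGB3, which passed the filter only through the arm where they were high. LAMA1 (1.90, 1.03 and 1.27 TPM, 3.21 ± 0.38) and ITGB6 (2.86 ± 0.16) followed. ITGB3 stayed above DMSO in HCC827 (log2 fold change 3.10, SE 0.26, adjusted p = 4.14e-05) and H1975 (log2 fold change 0.83, SE 0.30, adjusted p = 0.0437).

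Genes that work with integrins and laminins were described from a list of 34. In DTPs 19 of 32 tested were higher and 7 lower in PC9 (35.4% and 35.9% of all genes), 15 and 3 of 33 in HCC827 (19.4% and 17.2%), 13 and 6 of 34 in H1975 (22.4% and 23.4%), and 20 and 3 of 33 in HCC2935 (25.3% and 27.2%). Their median log2 fold change was 0.48, 0.35, 0.15 and 0.46 in the same order, beside 0.02, 0.02, 0.01 and 0.00 for all genes. Of the matrix ligands 5 of 6 tested were higher and 0 lower in PC9, 2 and 1 of 5 in HCC827, 2 and 2 of 6 in H1975, and 4 and 0 of 5 in HCC2935, to be read against the same shares of all genes. VTN (vitronectin, the ligand of ITGAV with ITGB3 or ITGB5) was higher in DTPs of PC9 (17.2, 16.1 and 13.5 from 0.249, 0.350 and 0.390 TPM), H1975 (38.1, 18.4 and 28.6 from 1.84, 2.67 and 1.42 TPM) and HCC2935 (3.50, 2.04 and 4.09 from 0.0892, 0.241 and 0 TPM) and was not tested in HCC827. FN1 (fibronectin) was higher in PC9 (393, 301 and 550.5 from 27.7, 18.1 and 27.6 TPM, 3.82 ± 0.23), HCC827 (2.79 ± 0.17) and HCC2935 (2.15 ± 0.14), and not called in H1975 (0.58 ± 0.32). THBS1 was called higher in all 4 lines, as were HSPG2 (perlecan) and AGRN (agrin) of the basement membrane and BCAM, a laminin receptor that is no integrin.

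TGFB2, one of the TGF-beta ligands, was also higher in the DTPs of all 4 lines (0.54 ± 0.16 in PC9, 2.64 ± 0.15 in HCC827, 2.09 ± 0.20 in H1975 and 2.36 ± 0.18 in HCC2935). TGFB1 was called in none of them. Among the 14 cytoplasmic adaptors FERMT1 (kindlin-1, an integrin activator of epithelia) was lower in DTPs of PC9 (-1.97 ± 0.14), HCC827 (-0.87 ± 0.13) and HCC2935 (-0.91 ± 0.09), while FERMT2 (kindlin-2) was higher in the same 3 lines. TNS4, a tensin that binds the tails of beta chains, was lower in PC9 (-2.26 ± 0.17), H1975 (-4.45 ± 0.36) and HCC2935 (-1.05 ± 0.16). COL17A1, the hemidesmosome collagen, was lower in H1975 (-2.91 ± 0.52), while 2 of the 4 hemidesmosome partners were higher there, DST (0.49 ± 0.11) and PLEC (0.55 ± 0.11).

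Some calls were lost when 1 library was left out. Such a fit holds 2 libraries of 1 arm and 3 of the other, and a loss does not show that the call rested on the omitted library. The share of calls over all genes that hold in such fits was not computed. In DTPs 66 of 82 calls held with any 1 of the 6 libraries left out. The call of ITGB3 in PC9 was lost without DMSO replicate 2 or 3 or DTP replicate 1 or 3 (adjusted p of 0.0955 to 0.137). That of ITGB8 was lost in H1975 without DMSO replicate 3 or DTP replicate 1 (adjusted p of 0.0728 to 0.0755) and in HCC2935 without DMSO replicate 1 or 2 or DTP replicate 1 (adjusted p of 0.0539 to 0.0717). In HCC827 ITGB6 lost its call without DMSO replicate 1, 2 or 3 or DTP replicate 2 or 3 (adjusted p of 0.0669 to 0.111) and LAMA3 without DMSO replicate 2 or 3 or DTP replicate 3 (adjusted p of 0.0607 to 0.0632). ITGB4 in HCC2935 was no longer called without DMSO replicate 1, 2 or 3 or DTP replicate 1 or 2 (adjusted p of 0.0525 to 0.121). In H1975 the same held for ITGB1 without DMSO replicate 1 or 3 or DTP replicate 1 (adjusted p of 0.064 to 0.0708), ITGA1 without DMSO replicate 1 or 2 or DTP replicate 1 (adjusted p of 0.0535 to 0.105) and ITGA2B without DMSO replicate 3 or DTP replicate 1 or 3 (adjusted p of 0.0518 to 0.072). ITGA2B in HCC2935 was lost without DMSO replicate 2 (adjusted p = 0.0669), ITGA7 in PC9 without DMSO replicate 1 or 3 or DTP replicate 1 or 3 (adjusted p of 0.0595 to 0.0987) and ITGA7 in HCC827 without DTP replicate 3 (adjusted p = 0.0567). LAMB2 kept its call in all 4 lines in each of these fits, with acute drug and in DTPs.

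With acute drug 51 of 63 calls held in this way. LAMA3 in PC9 was lost without DMSO replicate 3 or acute replicate 1 or 3 (adjusted p of 0.0986 to 0.133), LAMB3 in H1975 without DMSO replicate 1, 2 or 3 or acute replicate 1 or 2 (adjusted p of 0.058 to 0.109), LAMC3 in HCC827 without acute replicate 1 (adjusted p = 0.0621) and LAMB1 in H1975 without acute replicate 2 (adjusted p = 0.0638). The same held for LAMA1 in HCC827 without DMSO replicate 1, 2 or 3 or acute replicate 1, 2 or 3 (adjusted p of 0.0533 to 0.17) and LAMB4 in H1975 without DMSO replicate 1 or 3 or acute replicate 2 (adjusted p of 0.056 to 0.0663). After the long washout 49 of 70 held. In PC9 ITGB8 was lost without DMSO replicate 3 (adjusted p = 0.0506), ITGB2 without DMSO replicate 1, 2 or 3 (adjusted p of 0.0517 to 0.102) and LAMA4 without DMSO replicate 3 (adjusted p = 0.0523). ITGB8 in HCC2935 was lost without DMSO replicate 1 or 2 or long washout replicate 1, 2 or 3 (adjusted p of 0.0835 to 0.15) and ITGB3 in H1975 without DMSO replicate 2 or 3 or long washout replicate 1 or 3 (adjusted p of 0.0691 to 0.149). ITGB7 in H1975 was lost without long washout replicate 2 (adjusted p = 0.0514) and LAMA1 in HCC827 without long washout replicate 3 (adjusted p = 0.0556).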

How the data were processed

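RNA-seq was performed in 60 libraries of 4 cell lines. Per the labels, mRNA libraries were made with the Illumina TruSeq kit and sequenced as paired-end reads. The submitters' processing notes name Salmon 0.8.2, HISAT2 2.1.0 and the build hg38, without their roles. The annotation and the strand setting are not given in the sources used here. The authors deposited estimated counts per gene and log2 TPM values, the latter with a pseudocount of 0.01. TPM levels in the text were computed back from the log2 values, and their sum over the listed genes was 806145 to 890623 per library. Columns that belonged to no sample numbered 0.

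Estimated counts were rounded and fitted in R 4.3.3 with edgeR 4.0.16 (TMM scaling, low-count filter, quasi-likelihood F test), each comparison on its own 6 libraries, with Benjamini-Hochberg adjustment over all genes tested and a threshold of 0.05. The SE was taken from the log2 fold change and its F statistic. Differences between lines were tested as interactions of line and arm over 24 libraries and, without drug, over 12 DMSO libraries. The fits were tested on simulated data. Alternatives used DESeq2 1.42.0, limma 3.58.1 on log2 TPM, other scalings, filters and sample sets, a replicate block, and the omission of each library. Same-numbered samples deviated together in the short washout comparison of HCC827 (correlations of 0.407, 0.161 and 0.239), where the block left 0 of the 38 genes called. By the rule that each exceed 0.1 no other comparison passed. That of the short washout in H1975 fell just short (0.0977, 0.25 and 0.205), so pairing there is not excluded.

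The genes and lists were chosen with earlier results of these data known. Values are given in full for LAMA3, LAMB3 and their receptors, the ITGAV group, ITGA5, the collagen receptors and the main other laminin chains, and for the called genes with the largest change in each comparison. Counting error is small at 17715463 to 49134084 counts per library except for the genes with few counts. Promoter windows came from RefSeq (GRCh38.p14) and gene positions from GENCODE release 29. A window was found for 26 of the 38 genes. Results for 1 of the 38 genes and 1 marker are not reported here, and that gene remains in the counts over all 38.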

Additional observations from a re-analysis of the deposited data

Results flagged for a closer look

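In DTPs, 11 genes were called higher against DMSO in at least 1 line and lower in at least 1 other, and for each the effect differed between lines by the interaction of line and arm. That interaction passed for 61.6% of all genes, and opposite calls were not counted over all genes. The log2 fold changes of the called lines are given. ITGA1 was called lower with -1.57 in PC9 and higher with 1.12 in H1975 (interaction adjusted p = 0.000239). ITGA2B was called lower with -1.44 in HCC2935 and higher with 0.89 in H1975 (interaction adjusted p = 0.00221). ITGA7 was called lower with -1.52 in H1975 and -1.68 in HCC2935 and higher with 0.64 in PC9 and 1.17 in HCC827 (interaction adjusted p = 2.69e-05). ITGB1 was called lower with -0.43 in PC9 and higher with 0.52 in H1975 and 0.46 in HCC2935 (interaction adjusted p = 5.23e-05). ITGB2 was called lower with -1.77 in HCC827, -3.04 in H1975 and -1.65 in HCC2935 and higher with 2.38 in PC9 (interaction adjusted p = 2.03e-09). ITGB4 was called lower with -0.33 in HCC2935 and higher with 0.56 in PC9 (interaction adjusted p = 0.0309). ITGB6 was called lower with -0.89 in HCC827 and -4.11 in H1975 and higher with 0.56 in PC9 and 2.92 in HCC2935 (interaction adjusted p = 1.31e-07). ITGB7 was called lower with -2.99 in H1975 and higher with 2.90 in PC9 (interaction adjusted p = 3.3e-06). LAMA3 was called lower with -0.55 in HCC827 and -1.67 in H1975 and higher with 0.53 in PC9 and 0.73 in HCC2935 (interaction adjusted p = 3.31e-07). LAMB1 was called lower with -1.29 in H1975 and higher with 0.46 in PC9 and 0.96 in HCC2935 (interaction adjusted p = 3.86e-06). LAMB3 was called lower with -1.66 in HCC827 and -1.50 in H1975 and higher with 0.48 in PC9 (interaction adjusted p = 7.01e-06).

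With acute osimertinib, 3 genes differed in this way. The interaction passed for 40.5% of all genes there, and opposite calls were again not counted over all genes. ITGB4 was called lower with -0.61 in HCC2935 and higher with 0.78 in PC9, 0.60 in HCC827 and 1.91 in H1975 (interaction adjusted p = 2.55e-05). LAMB1 was called lower with -1.20 in H1975 and higher with 0.52 in PC9 (interaction adjusted p = 0.00062). LAMB3 was called lower with -0.38 in H1975 and -0.72 in HCC2935 and higher with 0.38 in PC9 (interaction adjusted p = 0.00157).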

How the results depend on the processing

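No fold change turned its direction among those called, and 14 of the 19 counts of genes stayed within 1.5 times under every alternative. In the fit of the 15 libraries of a line the genes called were 7 in place of 13 with acute drug in HCC827, 6 in place of 15 at the short washout of PC9 and 2 in place of 1 at that of HCC2935. In the fit of all 60 libraries they were 3 at the short washout of PC9 and 0 at that of HCC2935. For the short washout of HCC2935, DESeq2 called 5 and the fit with no filter 2, and leaving out 1 library gave 0 to 5. For the long washout of PC9, leaving out 1 library gave 3 to 13 in place of 11. With the replicate block 4 genes in place of 0 were called at the short washout of H1975, beside 1697 in place of 0 over all genes. The block moved no other count by over 1.5 times. Same-numbered samples of that H1975 comparison had correlations of 0.0977, 0.25 and 0.205, just short of the rule that each exceed 0.1. Pairing is therefore not excluded there, and the count of 0 comes from a fit without it. The rule was met at the short washout of HCC827 alone (correlations of 0.407, 0.161 and 0.239). Without 1 library, 174 single results lost their call and 34 gained one. The total of 3137 results includes genes that had no call to lose, so it is not the base of a loss rate. The causes were not tested. Genes near 0 counts, such as ITGB3 and ITGA4 in HCC2935, have fold changes that depend on the prior count.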
